A study of Mus musculus with 4 samples.

Results

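The CXC chemokine ligands are small secreted proteins with 2 conserved cysteines separated by a single residue. The genes described here are Cxcl1, Cxcl2, Cxcl3, Cxcl9, Cxcl10, Cxcl12 and Cxcl16, chosen by symbol, which makes 7 of the 24706 genes with an expression value in each library. Every one of them was found in all 4 libraries. RNA-seq was carried out on mouse myeloid cells of the newborn liver, in 2 libraries whose genotype is labelled wt and 2 labelled cko. In the study's text these are PD-1f/f mice, which carry a floxed exon of Pdcd1 on both alleles, and PD-1f/f mice that also carry LysM-Cre, so that the floxed allele was shared by both groups and Cre marked the cko group. In one place of the methods the controls are called wild-type. No treatment is named. LysM-Cre is driven from the Lyz2 locus, which is active in neutrophils, monocytes and macrophages, so that deletion can be incomplete and the cells of a library need not all carry it. The methods describe RNA of whole livers at postnatal day 2, whereas the results describe CD11b+ cells sorted at postnatal day 3. Whether the libraries of a group came from separate animals, or from pools, is not given in the sources used here, and p-values therefore measure only the spread between these libraries.

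Chemokines guide leukocytes along gradients by binding receptors with 7 membrane-spanning segments. Cxcl1, Cxcl2 and Cxcl3 bind Cxcr2 and draw neutrophils, and macrophages and neutrophils make them soon after microbial or cytokine signals through NF-kappaB. Cxcl9 and Cxcl10 bind Cxcr3 on activated T cells and natural killer cells and are classical targets of interferons. Cxcl12 is made mainly by stromal cells and holds Cxcr4-bearing progenitors and neutrophils in the haematopoietic niche. Cxcl16 is made as a membrane protein, binds Cxcr6, and is released when Adam10 or Adam17 cut it.

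The libraries held between 17691505 and 22212407 counted reads, so that 1 read in a gene of 1 kb was worth 0.0450 to 0.0565 FPKM (reads per kb of exon, scaled to the counted reads of the library). The targeted gene Pdcd1 was at 28.5 and 34.7 FPKM in the wt libraries and at 17.1 and 21.4 FPKM in the cko libraries, and so was still detected in both of the latter. Lyz2, the locus that holds Cre, was at 31306 and 32147 FPKM in wt and at 10422 and 8127 FPKM in cko. Itgam, which encodes CD11b, lay between 48.5 and 54.3 FPKM in all 4 libraries. Ddx3y, a Y-linked gene, was at 24.9 FPKM in wt replicate 2 and at no more than 0.00866 FPKM in the other libraries, so that the sex of the source also differed within the wt group. Markers of other cells were present: the summed level of 9 erythroid genes was 3719 and 2341 FPKM in wt and 1425 and 1521 FPKM in cko, that of 8 hepatocyte genes 43.0 to 102 FPKM, and that of 9 neutrophil genes 115770 and 91413 FPKM in wt against 62389 and 54976 FPKM in cko. In such bulk samples, fewer cells of a type and less RNA per cell cannot be told apart.

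The ligands lie at 4 places in the genome (GRCm38, the build of the deposited positions). Cxcl3 (ENSMUSG00000029379, chr5:90786103-90789600), Cxcl1 (ENSMUSG00000029380, chr5:90891241-90893115) and Cxcl2 (ENSMUSG00000058427, chr5:90903871-90905938) are on the plus strand of 1 cluster, which runs from Cxcl5 to Cxcl2 over 146579 bp and holds 7 CXC ligand genes. Cxcl9 (ENSMUSG00000029417, chr5:92321347-92328079) and Cxcl10 (ENSMUSG00000034855, chr5:92346638-92348889) are on the minus strand, with Cxcl11, in a cluster of 44139 bp. Cxcl12 (ENSMUSG00000061353, chr6:117168535-117181367, plus strand) and Cxcl16 (ENSMUSG00000018920, chr11:70453983-70459984, minus strand) stand alone. The principal transcript has 4 exons in each gene except Cxcl16, which has 5. For Cxcl1, Cxcl2, Cxcl3 and Cxcl10 the exon length behind the FPKM was the whole span of the gene, since transcripts with retained introns are annotated, and it was 1.86 to 3.44 times the length of the principal transcript. Their FPKM is therefore low for the length of the mature mRNA, and intronic reads would be counted in it. For Cxcl12 the length used was 8176 bp, 2.61 times that of the principal transcript, so its FPKM is also low for that transcript.

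The sequences in front of the genes with the largest ratios between the groups, Cxcl1, Cxcl2, Cxcl3 and Cxcl10, are shown with that of Cxcl12, which differed in the opposite direction, so that they can be read side by side. That of Cxcl9, which was also higher in both cko libraries, is not shown and holds neither of the patterns marked here. The windows run from 250 to 31 bases before the annotated RefSeq start (GRCm38.p6) and are written 5′ to 3′ on the strand of the gene, with capitals for matches to GGGNNNTTCC, a pattern of the NF-kappaB type, on either strand and, in Cxcl10 alone, to GAAANNGAAA, a pattern of the interferon response type. The windows are chr5:90890995-90891214 (plus strand) for Cxcl1, chr5:90903649-90903868 (plus strand) for Cxcl2, chr5:90785851-90786070 (plus strand) for Cxcl3, chr5:92348920-92349139 (minus strand) for Cxcl10 and chr6:117168285-117168504 (plus strand) for Cxcl12, which has no capitals since neither pattern is in it.
Cxcl1: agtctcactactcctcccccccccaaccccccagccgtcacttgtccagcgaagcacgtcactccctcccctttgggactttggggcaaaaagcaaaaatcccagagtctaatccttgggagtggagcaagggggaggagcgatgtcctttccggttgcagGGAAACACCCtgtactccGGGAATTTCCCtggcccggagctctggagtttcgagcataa
Cxcl2: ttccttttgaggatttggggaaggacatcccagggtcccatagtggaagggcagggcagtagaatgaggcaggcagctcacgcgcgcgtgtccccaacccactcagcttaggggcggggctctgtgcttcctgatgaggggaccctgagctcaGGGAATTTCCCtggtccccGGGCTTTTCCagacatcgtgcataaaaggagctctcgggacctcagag
Cxcl3: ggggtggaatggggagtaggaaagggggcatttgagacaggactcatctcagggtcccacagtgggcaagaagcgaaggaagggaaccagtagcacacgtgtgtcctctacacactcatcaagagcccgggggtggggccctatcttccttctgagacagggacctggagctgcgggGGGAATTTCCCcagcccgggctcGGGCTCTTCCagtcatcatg
Cxcl10: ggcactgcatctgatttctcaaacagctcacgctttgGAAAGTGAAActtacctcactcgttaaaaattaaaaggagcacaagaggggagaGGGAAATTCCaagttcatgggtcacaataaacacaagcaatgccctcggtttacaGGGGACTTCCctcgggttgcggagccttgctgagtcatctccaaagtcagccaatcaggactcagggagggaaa
Cxcl12: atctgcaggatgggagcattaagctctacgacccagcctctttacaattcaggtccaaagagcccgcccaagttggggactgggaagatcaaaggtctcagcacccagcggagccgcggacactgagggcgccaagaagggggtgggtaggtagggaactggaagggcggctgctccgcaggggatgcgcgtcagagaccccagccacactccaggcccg

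Windows were found for 6 of the 7 ligands, all but Cxcl16. The NF-kappaB type pattern was present in those of Cxcl1, Cxcl2, Cxcl3 and Cxcl10 and in 3.85% of the 32817 windows of the same length in the RefSeq table. In Cxcl1, Cxcl2 and Cxcl3 the run GGGAATTTCCC held 2 matches that overlap, offset by 1 base and on opposite strands, and began 71, 97 and 73 bases before the start. Each of these windows held a further match, at 89, 78 and 50 bases before the start. In Cxcl10 the matches began 159 and 104 bases before the start and did not overlap. The interferon response type pattern was found in Cxcl10, 213 bases before the start, and in 2.62% of all windows. TGANTCA, of the AP-1 type, was likewise found in Cxcl10, 74 bases before the start, and in 6.12% of all windows. TATAAA was found in Cxcl9, 195 bases before the start, and in 9.96% of all windows. The windows end 31 bases before the start, so a TATAAA closer to it would not be seen in any gene. The patterns were chosen after the sequences had been seen, and a match describes letters, not a site in use.

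Cxcl1, Cxcl2 and Cxcl3, the Cxcr2 ligands of the 7, were higher in both cko libraries than in both wt libraries. The larger part of the difference was in cko replicate 2. Cxcl2, the most abundant ligand of the 7 in every library, had 38.0 FPKM in wt replicate 1 (1744 reads), 27.3 FPKM in wt replicate 2 (1064 reads), 110 FPKM in cko replicate 1 (4256 reads) and 449 FPKM in cko replicate 2 (16414 reads). The groups did not overlap, and cko replicate 2 held 4.09 times the level of cko replicate 1. The cko mean was 8.55 times the wt mean, and the log2 fold change of FPKM + 1 was 2.75 (standard error 0.63, unadjusted p = 0.00582 and adjusted p = 0.212 from limma).

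Cxcl1 was barely detected in wt, at 0.408 and 0.142 FPKM from 17 and 5 reads. It had 0.968 FPKM (34 reads) in cko replicate 1 and 6.96 FPKM (231 reads) in cko replicate 2. The 95% counting interval of cko replicate 1, 0.670 to 1.35 FPKM, lay just above that of wt replicate 1, 0.238 to 0.654 FPKM, whereas cko replicate 2 stood far from all other libraries. The ratio of the group means was 14.4, with 3.52 for cko replicate 1 and 25.3 for cko replicate 2 set against the wt mean. The log2 fold change was 1.64 (standard error 0.66, unadjusted p = 0.0492 and adjusted p = 0.303 from limma), which is less than the ratio of means implies because the added 1 FPKM weighs on low values. The absolute level of Cxcl1 stayed low even in cko replicate 2, where Cxcl2 held 449 FPKM.

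Cxcl3 had 0.270 and 0.410 FPKM in wt (21 and 27 reads), 0.869 FPKM in cko replicate 1 (57 reads) and 14.1 FPKM in cko replicate 2 (870 reads). It showed the widest gap of the 7 between the cko libraries, 16.2-fold. The log2 fold change was 1.99 (standard error 0.93, unadjusted p = 0.0797 and adjusted p = 0.352 from limma). Without cko replicate 2 the values became 0.48 for Cxcl3, 0.63 for Cxcl1 and 1.74 for Cxcl2 (unadjusted p = 0.00182 from limma for the last). Cxcl2 and Cxcl3 are close copies, with 89.7% identity of their coding sequences, against 75.7% between Cxcl1 and Cxcl2 and 72.7% between Cxcl1 and Cxcl3. Of the 50-base words of the principal transcripts, 5.75% in Cxcl2 and 6.31% in Cxcl3 were shared with the other gene, and none of Cxcl1 were shared with any gene, so that reads of that stretch cannot be assigned to Cxcl2 or Cxcl3 with certainty.

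**Figure D1:**
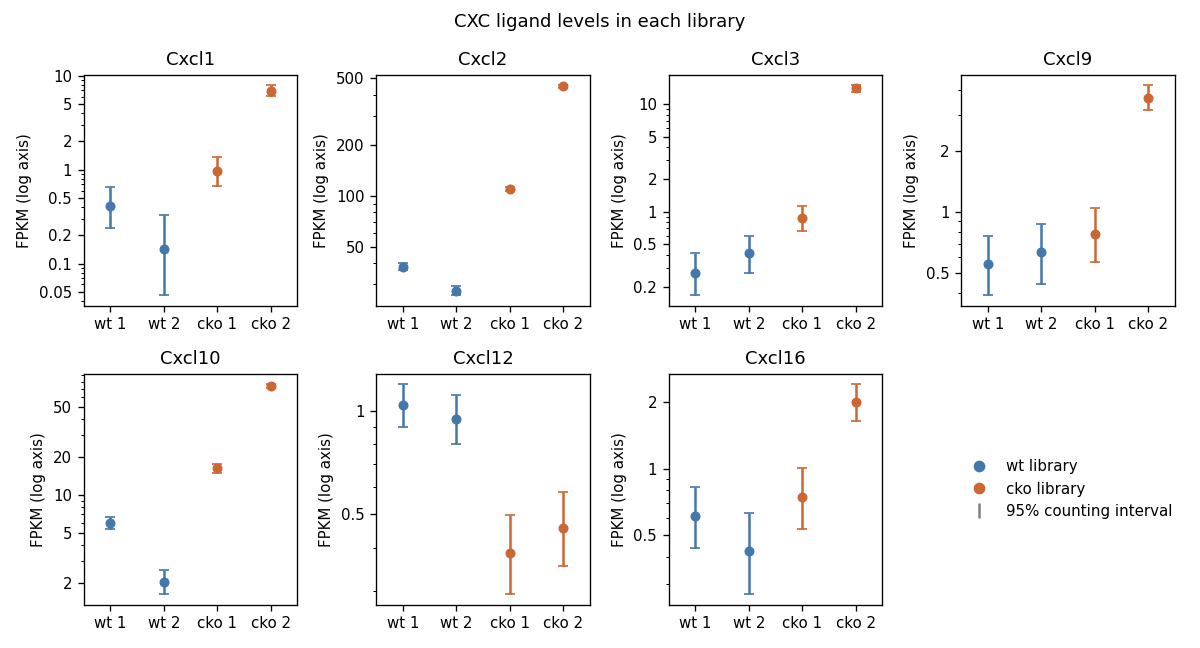
FPKM on a log axis for each ligand in the 4 libraries, as points (blue wt, orange cko) with bars for the 95% Clopper-Pearson interval, which holds the counting error alone. Both cko libraries lie above both wt libraries for 6 ligands, with cko replicate 2 the highest (449 FPKM for Cxcl2), and below both for Cxcl12.

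The Cxcr3 ligand Cxcl10 followed the same order of libraries. It had 5.98 and 2.03 FPKM in wt (299 and 86 reads), 16.3 FPKM in cko replicate 1 (688 reads) and 73.8 FPKM in cko replicate 2 (2942 reads). The groups did not overlap, although the wt libraries themselves differed 2.95-fold. The cko mean was 11.3 times the wt mean, and the log2 fold change was 2.97 (standard error 0.74, unadjusted p = 0.00833 and adjusted p = 0.214 from limma). Without cko replicate 2 it was 1.91, with an unadjusted p of 0.0256 from limma.

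For Cxcl9, its neighbour in the cluster, 1 library stood apart. Cxcl9 had 0.552 and 0.634 FPKM in wt (37 and 36 reads), 0.778 FPKM in cko replicate 1 (44 reads) and 3.67 FPKM in cko replicate 2 (196 reads). The counting interval of cko replicate 1, 0.566 to 1.04 FPKM, overlapped those of both wt libraries. The log2 fold change was 0.86 (standard error 0.48, unadjusted p = 0.131 and adjusted p = 0.419 from limma) and 0.16 without cko replicate 2. A part of the Cxcl10 transcript, 8.04% of its 50-base words, is also annotated to Art3 on the other strand, which had 0.0678 to 0.431 FPKM.

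Cxcl12, the stromal ligand of Cxcr4, was the only one of the 7 with lower values in both cko libraries. It had 1.04 and 0.949 FPKM in wt (189 and 146 reads) and 0.385 and 0.456 FPKM in cko (59 and 66 reads). The replicates of each group lay close together, within 1.10-fold in wt and 1.19-fold in cko, and no counting interval of one group overlapped one of the other. The wt mean was 2.36 times the cko mean. With a mean of 0.708 FPKM, Cxcl12 was under the minimum of 1 FPKM set for the test, so it received no call, and a fit without that minimum gave a log2 fold change of -0.49 (standard error 0.21, unadjusted p = 0.0772 from limma). On recovered reads, where no constant is added to FPKM, voom of limma gave -1.24 (unadjusted p = 0.0120, adjusted p = 0.234).

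Stromal markers were low, and their sum was lower in both cko libraries, as Cxcl12 was. The summed level of 8 stromal genes was 8.20 and 11.9 FPKM in wt and 5.92 and 2.43 FPKM in cko. Dcn, a matrix proteoglycan of fibroblasts, had 4.41 and 3.72 FPKM in wt and 1.50 and 0.765 FPKM in cko. Of the 8, 3 including Dcn lay below both wt libraries in both cko libraries, against 17.3% of genes reaching 0.5 FPKM on average. The others overlapped between the groups, among them Col3a1 with 0.977 and 2.27 FPKM in wt and 1.36 and 0.536 FPKM in cko and Lepr with 0.281 and 0.497 FPKM in wt and 0.666 and 0.192 FPKM in cko. Pdgfra was listed at 0 in wt replicate 1 and cko replicate 2 and at no more than 0.0689 FPKM in the other libraries. The part of stromal cells in the Cxcl12 difference was not tested.

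Cxcl16, the membrane-bound ligand of Cxcr6, had 0.611 and 0.422 FPKM in wt (41 and 24 reads), 0.742 FPKM in cko replicate 1 (42 reads) and 2.00 FPKM in cko replicate 2 (107 reads). As for Cxcl9, cko replicate 1 lay within the counting error of wt, and the counting interval of cko replicate 2, 1.64 to 2.42 FPKM, lay apart from the rest. Cxcl16 was also under the minimum for the test, and the fit without it gave 0.60 (standard error 0.36, unadjusted p = 0.165 from limma). Its start overlaps Zmynd15 on the other strand, with which it shares 19.0% of its 50-base words and which had 0.0121 to 0.423 FPKM. Without knowledge of strand, reads of that stretch cannot be assigned to one of them.

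Across the 7 ligands, both cko libraries lay above both wt libraries for 6 and below both for 1, where 32.6% and 17.3% did so among the 12776 genes whose mean reached 0.5 FPKM. For the same 6, cko replicate 2 exceeded cko replicate 1 by more than 1.5-fold, which held for 15.2% of those genes. Cxcl1 and Cxcl3 reached a mean of 0.5 FPKM through cko values alone, with wt means of 0.275 and 0.340 FPKM. Their direction in the count of 6 was therefore fixed. Most of the ligands are neighbours in a cluster and all were measured in the same libraries, so they are not independent of each other. Of the 7, 5 reached the minimum for the test, and 3 of these, Cxcl1, Cxcl3 and Cxcl9, reached it through cko values alone, with a wt mean under 1 FPKM, so that their direction was fixed by the filter and their number supports nothing. At a log2 fold change of at least 1 in size and an adjusted p under 0.05, limma called 0 of the 5, as it called 0% of all 10779 genes tested, and voom called 0 of the 7. At an unadjusted p under 0.05, 3 of them were higher in cko (Cxcl1, Cxcl2 and Cxcl10), against 11.4% of all genes tested, but the direction of Cxcl1 was fixed by the filter. Cxcl1 missed that limit without a filter, with median-of-ratios or quantile scaling (2 ligands then being higher), without a trend, with voom and without either wt library or cko replicate 2, and Cxcl10 missed it without wt replicate 2. At a log2 fold change above 1 and an unadjusted p under 0.01, Cxcl2 and Cxcl10 passed in the higher direction, against 1.88% of all genes tested, and 0 passed in the lower direction, against 0.408%. By size of log2 fold change, Cxcl10 ranked 2 and Cxcl2 ranked 5 from the highest among the 10779 genes. An exact permutation test of 1 gene with 2 libraries a group cannot give a two-sided p below 0.333.

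**Figure D2:**
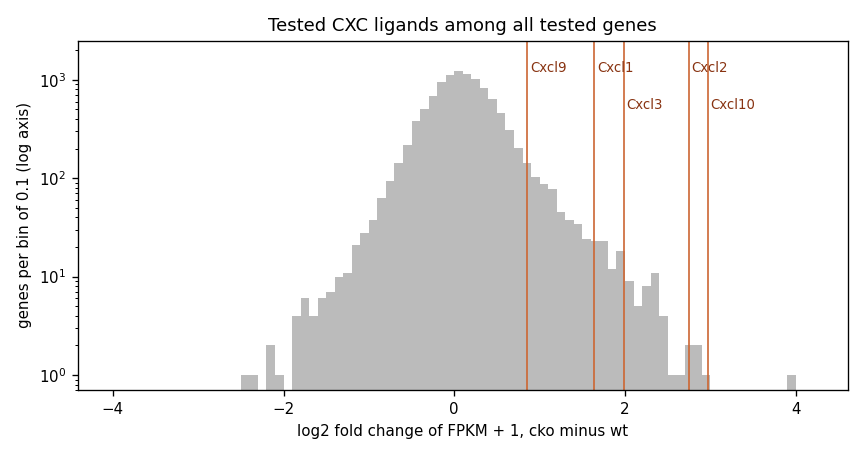
Number of tested genes, on a log axis, in bins of 0.1 of the log2 fold change of FPKM + 1 (cko minus wt), with orange lines at the 5 tested ligands. Cxcl2 at 2.75 and Cxcl10 at 2.97 lie in the far right tail, and Cxcl9 at 0.86 lies on the right shoulder.

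**Figure D3:**
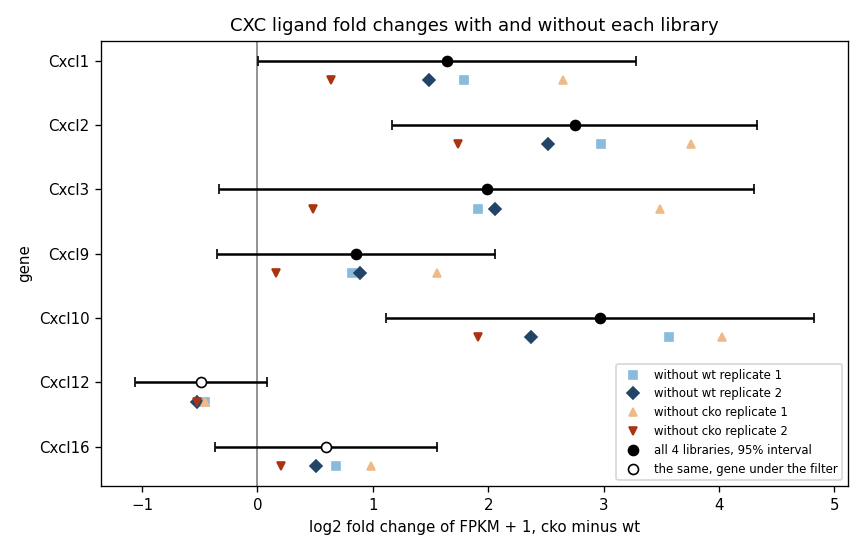
Log2 fold change of FPKM + 1 (cko minus wt) of each ligand with its 95% limma interval, as filled circles or, for the ligands under the filter, open circles, and below each the values with 1 library left out. Leaving out cko replicate 2 brings Cxcl3 from 1.99 to 0.48 and Cxcl9 from 0.86 to 0.16, whereas Cxcl12 stays between -0.53 and -0.45.

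The other CXC ligands were mostly at or near 0. Of 6 with a value, 1 was tested, the platelet chemokine Pf4, which had 17.2 and 7.81 FPKM in wt and 6.88 and 14.3 FPKM in cko, overlapping groups. Ppbp, also stored in platelets, had 1.75 and 0.196 FPKM in wt and 0.246 and 1.04 FPKM in cko. Both were high in the same 2 libraries, wt replicate 1 and cko replicate 2, an order unlike that of any of the 7 ligands, although they lie in the cluster of Cxcl1, Cxcl2 and Cxcl3. The summed level of 5 megakaryocyte genes was 6.83 and 3.92 FPKM in wt and 3.52 and 2.78 FPKM in cko, and their part in Pf4 and Ppbp was not tested. Cxcl5, another Cxcr2 ligand, had 0 reads in both wt libraries, which allows up to 0.0725 and 0.0856 FPKM, and 1 and 9 reads in the cko libraries. Cxcl11, a Cxcr3 ligand annotated here as a polymorphic pseudogene, had 13, 0, 10 and 41 reads in wt replicates 1 and 2 and cko replicates 1 and 2. Cxcl15 and Cxcl17 had at most 4 reads in a library.

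The receptors of these ligands were unequally represented. Cxcr2, the receptor of Cxcl1, Cxcl2 and Cxcl3 on neutrophils, was abundant, with 199 and 179 FPKM in wt and 230 and 317 FPKM in cko. It had a log2 fold change of 0.52 (standard error 0.19, unadjusted p = 0.0393 and adjusted p = 0.281 from limma). Cxcr2 is also 1 of the 9 neutrophil markers, of which 2 (Cxcr2 and Elane) were higher in both cko libraries and 6 were lower in both. Among genes whose mean reached 0.5 FPKM, 32.6% were higher in this way and 17.3% lower. Ly6g, a neutrophil marker lower in both, had 245 and 351 FPKM in wt and 200 and 143 FPKM in cko. Cxcr4, the receptor of Cxcl12, had 18.1 and 21.1 FPKM in wt and 12.5 and 8.50 FPKM in cko, and its log2 fold change was -0.86 (standard error 0.22, unadjusted p = 0.00930 and adjusted p = 0.214 from limma). Both members of the Cxcl12 and Cxcr4 pair were thus lower in both cko libraries than in both wt libraries. Ackr1, a scavenger of chemokines on erythroid and endothelial cells, had 6.12 and 4.35 FPKM in wt and 2.85 and 6.12 FPKM in cko. Cxcr3, the receptor of Cxcl9 and Cxcl10, lay between 0.261 and 1.14 FPKM, Cxcr6 between 0.256 and 0.660 FPKM and Ackr3, which also binds Cxcl12, between 0.0844 and 0.471 FPKM, each with overlapping groups. Cxcr5, the receptor of follicular B cells, had at most 1.46 FPKM, and Cxcr1 had 2 reads in cko replicate 1 and 0 in the other libraries. Of the 3 receptors tested, limma called 0 by adjusted p, and at an unadjusted p under 0.05 1 was higher and 1 lower, where 11.4% and 4.95% of all genes tested were. Cxcr2 missed that limit with median-of-ratios or quantile scaling, without a filter or a trend, with the replicate block and without either wt library or cko replicate 2, and Cxcr4 missed it without wt replicate 2.

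The proteases that act on CXC ligands showed small differences. Adam17, which sheds Cxcl16, had 8.22 and 7.82 FPKM in wt and 9.66 and 13 FPKM in cko (log2 fold change 0.44), and Adam10 had 28.4 and 32.1 FPKM in wt and 25.4 and 26.2 FPKM in cko (-0.22). Mmp8, the neutrophil collagenase, had 1109 and 1180 FPKM in wt and 805 and 764 FPKM in cko (-0.54, unadjusted p = 0.00766 and adjusted p = 0.214 from limma). Mmp9, the gelatinase that trims Cxcr2 ligands, had 510 and 561 FPKM in wt and 499 and 444 FPKM in cko. Dpp4, which trims Cxcl10 and Cxcl12, had 1.77 to 2.80 FPKM. Of the 5, limma called 0 by adjusted p, 1 had a positive and 4 a negative log2 fold change, with a median of -0.22 against 0.09 over all genes tested.

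The factors that act on transcription or decay of CXC ligand mRNA mostly lay on the same side as the ligands. Of 11 genes, 10 were tested, all 10 with a positive log2 fold change, which 60.4% of all genes tested had, and with a median of 0.56 against 0.09 over all genes tested. By adjusted p limma called 0 of them. At an unadjusted p under 0.05, 6 were higher, against 11.4% of all genes tested. At a log2 fold change above 1 and an unadjusted p under 0.01, 2 passed, Nfkbia and Irf1, against 1.88%. With median-of-ratios or quantile scaling, 5 were higher at an unadjusted p under 0.05, where 818 and 780 of all genes tested were. Of the 2, Irf1 alone then passed the stricter threshold. Both missed it without a filter and without a trend. Rela and Elavl1 missed 0.05 with the replicate block, and Elavl1 also without a trend. Nfkbia, the inhibitor of NF-kappaB and itself one of its targets, had 222 and 206 FPKM in wt and 396 and 904 FPKM in cko (log2 fold change 1.48, adjusted p = 0.214 from limma). Irf1, an interferon-induced factor, had 25.9 and 21.2 FPKM in wt and 47.4 and 102 FPKM in cko (1.53, adjusted p = 0.214 from limma). Both had the order of libraries of Cxcl2 and Cxcl10, with cko replicate 2 the highest.

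The NF-kappaB subunits differed less and more evenly between the cko libraries. Rela had 23.9 and 25.0 FPKM in wt and 33.6 and 35.6 FPKM in cko (log2 fold change 0.48), and Nfkb1 had 3.52 and 4.66 FPKM in wt and 6.71 and 7.78 FPKM in cko (0.70). Nfkbiz, a nuclear cofactor induced with the early response, had 44.9 and 46.7 FPKM in wt and 69.5 and 111 FPKM in cko (0.92). Irf8, a factor of the monocyte lineage, had 15.4 and 14.7 FPKM in wt and 18.5 and 21.5 FPKM in cko. Of the proteins that destabilise such mRNAs, Zfp36 had 384 and 344 FPKM in wt and 426 and 596 FPKM in cko, Zfp36l1 had 5.60 and 4.51 FPKM in wt and 5.64 and 12.3 FPKM in cko, and Zc3h12a overlapped between the groups (2.27 to 5.32 FPKM). Elavl1, which stabilises them, had 12.9 and 12.5 FPKM in wt and 17.0 FPKM in both cko libraries. Cebpb was under the minimum, at 0.479 to 1.43 FPKM. Without cko replicate 2, 9 of the 10 were positive, against 60.3% of all genes tested in that fit, 4 were higher at an unadjusted p under 0.05, against 6.62%, and 0 passed the stricter threshold, against 1%.

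**Figure D4:**
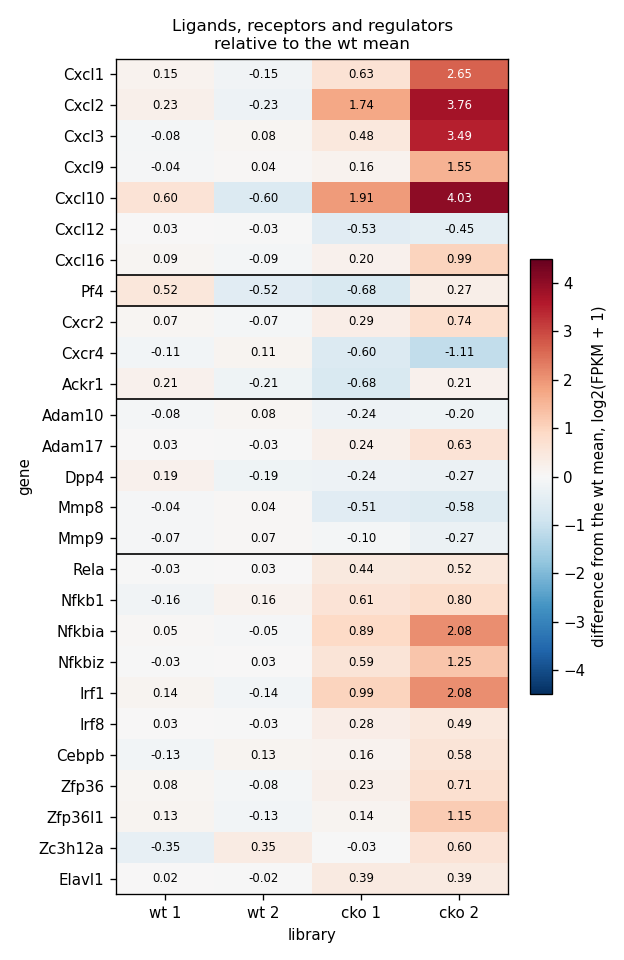
Difference of each library from the wt mean on the log2(FPKM + 1) scale, for the 7 ligands, Pf4, 3 receptors, 5 proteases and 11 regulators (rows, separated by lines) in the 4 libraries (columns), with red above and blue below the wt mean. The deepest red is cko replicate 2 for Cxcl10 (4.03) and Cxcl2 (3.76), and Cxcl12 and Cxcr4 are blue in both cko columns.

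Markers of the monocytes and macrophages, which can make these ligands, had their highest summed level in cko replicate 2. The summed level of 6 monocyte genes was 505 and 490 FPKM in wt and 515 and 626 FPKM in cko, and Csf1r, the receptor of monocytes and macrophages for their growth factor, had 40.9 and 33.0 FPKM in wt and 45.6 and 113 FPKM in cko. Of the 6, 3 (Csf1r, F13a1 and Nr4a1) lay above both wt libraries in both cko libraries. Among genes whose mean reached 0.5 FPKM, 32.6% lay above in this way and 17.3% below. Ly6c2, the most abundant of the 6, lay below both wt libraries in both cko libraries. It had 343 and 360 FPKM in wt and 333 and 315 FPKM in cko. The summed level of 8 macrophage genes was 362 and 267 FPKM in wt and 268 and 417 FPKM in cko. The groups overlapped, with the highest sum in cko replicate 2. Of the 8, 5 had a positive log2 fold change, which 60.4% of all genes tested had, and 3 a negative one. Those 3, C1qb, Vsig4 and Clec4f, were highest in wt replicate 1, with 109, 23.0 and 38.5 FPKM. In cko replicate 2 they had 93.0, 17.7 and 33.7 FPKM. The summed level of 4 dendritic cell genes was 1.57 and 1.66 FPKM in wt and 2.05 and 3.82 FPKM in cko. The endothelial genes summed to 31.1 and 22.7 FPKM in wt and 26.6 and 35.5 FPKM in cko, and the lymphoid genes to 29.8 to 38.7 FPKM. In cko replicate 2 the summed level was 1.26 times the wt mean for the monocyte genes and 1.33 times for the macrophage genes. Csf1r alone was 3.06 times its wt mean there. The part of these cells in the ligand values was not tested.

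The genes with the profile nearest to a ligand over the 4 libraries were found by the root mean square difference of centred log2(FPKM + 1) values among all tested genes. For Cxcl2 the nearest was Ccrl2 (0.13), an atypical receptor of chemerin, with 14.3 and 7.95 FPKM in wt and 38.5 and 174 FPKM in cko, followed by Upp1 (0.14), the uridine phosphorylase, with 3.60 and 2.28 FPKM in wt and 13.8 and 44.8 FPKM in cko, and by the small nucleolar RNA gene Gm23722 (0.17). For Cxcl10 they were Ccrl2 (0.17), Gm23722 (0.27) and Cxcl2 (0.29). For Cxcl1 they were Ly6i (0.10), the microRNA gene Gm22118 (0.11) and Gpr35 (0.12), a G protein-coupled receptor with 7.33 and 4.42 FPKM in wt and 8.95 and 38.9 FPKM in cko. For Cxcl16 they were Gm26348 (0.04), Fxyd5 (0.05) and Ptger4 (0.05), a receptor of prostaglandin E2. Each of these profiles had its highest value in cko replicate 2, which follows from choosing them by likeness to these ligands.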

How the data were processed

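RNA-seq of 4 libraries, 2 labelled wt and 2 labelled cko, was analysed as labelled. The authors deposited 1 FPKM value per gene and library (RPKM in their methods). Their processing notes name Bowtie2 2.2.3, TopHat2 2.0.12, HTSeq 0.6.0 and the build mm9, but 92.61% of the deposited positions were identical to GENCODE M21 (GRCm38), which was used for positions and lengths. Whether counting used strand is not given in the sources used here. FPKM values of single-exon genes were whole multiples of 1 read in 99.97% to 100% of values (tolerance 0.02 reads), which gave the counted reads of each library and the reads of 96.18% of the genes. Intervals are 95% Clopper-Pearson intervals and, like the limit of 3 reads for a count of 0, cover counting error only.

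Groups were compared with limma 3.58.1 in R 4.3.3 (lmFit, eBayes with a trend) on log2(FPKM + 1) without covariates, on the 10779 genes whose mean reached 1 FPKM. Fold changes of low genes are understated on this scale. P-values were two-sided and adjusted by the Benjamini-Hochberg method over all tested genes. Both thresholds of the study were used, the adjusted one of its methods and the unadjusted one of its results. On simulated reads for this comparison, with 10485 genes tested, 88.9% of 189 altered genes (log2 fold change 2) were recovered, with 12 false calls. Every simulated gene had a negative binomial dispersion of 0.04 between libraries of a group. The cko libraries differed 4.09-fold for Cxcl2, so the recovered share does not give the power for these ligands. The members and gene lists were chosen with earlier results of these data known. The genes named are the members, Pdcd1, Lyz2, the genes of the 4 lists of other ligands, receptors, proteases and regulators, cell type markers, and the 3 nearest profiles of Cxcl1, Cxcl2, Cxcl10 and Cxcl16. Ddx3y, Art3 and Zmynd15 were added after their values were seen. Cxcl13 and Cxcl14 were not analysed here, and 1 further regulator planned for these lists is not reported here. Alternatives covered pseudocounts, filters, scalings, eBayes without a trend, a replicate block, voom on the recovered reads (minimum mean 10) and the omission of single libraries. A minimum mean of 0.5 FPKM, the crossed block and the list counts under other settings were added after the values were seen. Promoter windows came from RefSeq (GRCm38.p6), and figures were drawn with matplotlib 3.10.9.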

Additional observations from a re-analysis of the deposited data

How the results depend on the processing

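Cxcl1, Cxcl2, Cxcl3, Cxcl9 and Cxcl10 kept a positive log2 fold change and missed the adjusted threshold under every alternative that gave them a value. For Cxcl1, Cxcl3 and Cxcl9, with wt means under 1 FPKM, the filter of 1 FPKM fixed that direction in fits of all 4 libraries. Their kept sign in those fits supports nothing. They were also under 1 FPKM in cko replicate 1, so a fit without that library rests on the one that carried them past the filter. The number of the 7 ligands called by adjusted p was 0 throughout. At a log2 fold change above 1 and an unadjusted p under 0.01, Cxcl2 and Cxcl10 passed as higher, as did 203 of all 10779 genes tested. Without a filter 0 ligands passed, where 146 of 24706 genes were higher at that threshold. Cxcl2 alone passed with median-of-ratios scaling (142 of 10737 genes higher), without a trend (180 of 10779) and with the replicate block (215 of 10779). Both passed under every other alternative that used all 4 libraries. With 1 library left out, log2 fold changes ran from 0.63 to 2.65 for Cxcl1, 1.74 to 3.76 for Cxcl2, 0.48 to 3.49 for Cxcl3, 0.16 to 1.55 for Cxcl9, 1.91 to 4.03 for Cxcl10, -0.53 to -0.45 for Cxcl12 and 0.20 to 0.99 for Cxcl16, the lowest of each positive range being without cko replicate 2. The adjusted p of Cxcl10 ran from 0.0721 to 0.615 and that of Cxcl2 from 0.0777 to 0.615 over all alternatives of limma.

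Cxcl12 moved to -1.07 and -1.23 with pseudocounts of 0.1 and 0.01, -0.59 with quantile normalization, -0.41 with erythroid and hepatocyte genes removed and -1.24 with voom. Cxcl16 moved to 1.13 and 1.25 with those pseudocounts and to 1.21 with voom, whose scale adds no FPKM constant. With the same pseudocounts and voom, Cxcl1 went from 1.64 to 2.97, 3.37 and 3.27, Cxcl3 from 1.99 to 3.09, 3.36 and 3.35, and Cxcl9 from 0.86 to 1.40, 1.50 and 1.49, while Cxcl2 and Cxcl10 stayed between 2.77 and 3.31. Of the other listed genes, Mmp9 turned to 0.027 with erythroid and hepatocyte genes removed. With 1 library left out, Pf4 ran from -0.73 to 0.32, Ackr1 from -0.68 to 0.21 and Zc3h12a from -0.069 to 0.64. The cause was not tested. Removing erythroid and hepatocyte genes moved the median of all genes from 0.09 to 0.27, and the 203 higher and 44 lower genes at the unadjusted threshold became 351 and 17. They became 142 and 72 with median-of-ratios and 150 and 79 with quantile scaling. In all, the 247 genes became 126 at a mean of at least 5 FPKM, where Cxcl1, Cxcl3, Cxcl9, Cxcl12 and Cxcl16 have no value, and 131 to 462 with 1 library left out. By adjusted p, 2 genes passed with voom, neither of them a ligand.

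Whether replicate numbers pair the libraries is not given in the sources used here. The correlation of the differences between replicates 1 and 2 in wt and cko, across tested genes, was -0.163. It cannot settle the pairing, since the wt libraries also differed in the sex of the source. With the replicate block, 215 genes were higher and 43 lower at the unadjusted threshold. With the numbers crossed in the block, a fit added after the data were seen, these were 298 and 65, and 1 gene passed by adjusted p.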
